A study of Mus musculus with 17 samples.

Results

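The comparison described here asks how T cells labelled as lacking the Notch1 and Notch2 receptors differed from wild type T cells after the same Th2 culture in a dish. It rests on 4 RNA-seq libraries, 2 wild type and 2 knockout-labelled. It covers every gene with at least 1 RPKM in at least 2 of the 4, which was 10914 of the 24537 genes in the tables. RPKM is a read count divided by the length of the gene and by the size of the library.

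All 4 libraries came from naive spleen T cells of OTII mice, a strain with a transgenic receptor for an ovalbumin peptide on its CD4 T cells, so wild type here means the OTII genotype and knockout-labelled means OTII_Notch1/2-KO. Cells of both genotypes were kept for 7 days on plates coated with antibodies to CD3 and CD28, in medium with IL-4, while IFN-γ and IL-12/23 were blocked by antibodies. A Notch ligand is not named among the additions. The labels give neither the Cre driver nor the deleted exons, and they do not say whether replicates came from separate mice, so p-values measure the spread between these libraries, which may be technical. Libraries from the same genotypes taken out of the draining lymph node during allergic airway inflammation, 3 wild type and 4 knockout-labelled, are used below only to test where the genotype difference was another one than in culture.

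Notch receptors sit in the cell membrane and are cut when a ligand on a neighbouring cell binds them. ADAM10 makes the first cut and the gamma-secretase complex, built around a presenilin, the next, and this frees the intracellular domain. The freed domain enters the nucleus, joins the DNA-binding protein RBPJ and a Mastermind-like coactivator, and switches on genes such as Hes1, Hes5, Dtx1 and Nrarp. In CD4 T cells the pathway has been tied to Gata3, the transcription factor that defines the Th2 fate, to Il4, and to cytotoxic genes such as Gzmb.

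The DNA just upstream of 3 Notch target genes, Dtx1, Hes5 and Ptcra, is shown as examples from the list used below. Each line is the 250 bases before the annotated start, from RefSeq on GRCm38.p6, written 5′ to 3′ on the gene's strand, with the RBPJ core motif TGGGAA, or its reverse complement TTCCCA, in capitals. Dtx1 lies on the minus strand (chr5:120711670-120711919), Hes5 on the plus strand (chr4:154960673-154960922) and Ptcra on the minus strand (chr17:46763713-46763962).
Dtx1: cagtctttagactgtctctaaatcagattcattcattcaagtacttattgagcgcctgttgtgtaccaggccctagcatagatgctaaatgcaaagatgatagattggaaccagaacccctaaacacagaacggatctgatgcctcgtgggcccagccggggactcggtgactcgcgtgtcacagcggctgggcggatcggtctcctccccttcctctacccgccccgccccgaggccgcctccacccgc
Hes5: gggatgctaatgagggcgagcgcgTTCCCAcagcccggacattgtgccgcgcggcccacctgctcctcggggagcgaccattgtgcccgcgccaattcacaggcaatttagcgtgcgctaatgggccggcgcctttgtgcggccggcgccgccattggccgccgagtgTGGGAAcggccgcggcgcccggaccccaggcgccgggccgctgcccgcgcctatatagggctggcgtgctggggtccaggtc
Ptcra: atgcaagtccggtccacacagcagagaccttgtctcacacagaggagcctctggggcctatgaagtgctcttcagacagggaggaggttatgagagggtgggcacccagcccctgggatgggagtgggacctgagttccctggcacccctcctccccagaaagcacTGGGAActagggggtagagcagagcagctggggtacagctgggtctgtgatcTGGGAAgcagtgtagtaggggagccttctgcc
The Hes5 window held the motif at 226 and 82 bases before the start, once on each strand, and the Ptcra window held it at 84 and 32 bases, both on the gene's strand. None was found in the Dtx1 window. Of 13 listed target genes, 8 had such a window and 3 of these held the motif (the third is Hey2), beside 7094 of 32851 windows over all genes, or 21.6%. These matches describe letters only.

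Depth was even: the 4 libraries held 16561975 to 17450303 reads in genes, and 10758 to 10848 genes reached 1 RPKM in each. One library stood apart from the other 3. Wild type replicate 1 was correlated with the others at a Pearson r of 0.973 to 0.978 across genes, whereas the other 3 pairs reached 0.986 to 0.991, with the highest value between wild type replicate 2 and knockout-labelled replicate 1. It held the highest value of the 4 in 3856 genes and the lowest in 4035. The defining CD4 T cell markers were present in all 4 libraries (9 of 9 measured were tested), with summed levels of 1766 and 1878 scaled RPKM in wild type and 2049 and 1678 in knockout-labelled libraries. Summed markers of B cells reached 7.99 to 13.2, of macrophages 3.48 to 3.93 and of dendritic cells 0.859 to 1.78. Those of basophils or mast cells, nearly all of it Cpa3, reached 15.7 and 6.28 in wild type and 5.61 and 7.63 in knockout-labelled libraries. Those of neutrophils, eosinophils and erythroid cells stayed at 1.24 or less. Many results are therefore also given without wild type replicate 1, and a result lacking such a value may still depend on it. Only replicate 2 then stands for wild type. P-values from that fit, and counts of genes under a threshold, take no spread from wild type. A smaller p-value there is no sign of a firmer difference.

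Levels below are scaled RPKM, in which a library factor evens out overall differences, and are listed with wild type replicate 1 before 2 and knockout-labelled replicate 1 before 2. Fold changes are knockout-labelled over wild type on the scale of log2(scaled RPKM + 1), with the standard error (SE) or 95% interval from limma, and the p-values are limma's two-sided values. The added 1 makes the fold change of a gene with a low level smaller than its ratio.

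Of the 2 targeted genes, Notch1 was far lower in the knockout-labelled libraries and Notch2 was not. Notch1 (chr2:26457902-26503822, minus strand, build mm10) stood at 25.2 and 27.7 in wild type and at 3.99 and 0.998 in knockout-labelled libraries. Both knockout-labelled values lay far below both wild type values, and knockout-labelled replicate 1 lay above replicate 2. The log2 fold change was -3.12 (SE 0.37, interval -3.97 to -2.26), with the smallest unadjusted p of all tested genes in limma, 3.3e-05, and an adjusted p of 0.360. Notch2 (chr3:98013538-98150367, plus strand) stood at 7.32 and 6.94 in wild type and at 6.76 and 6.27 in knockout-labelled libraries. The groups did not overlap but lay close together, and the interval of the log2 fold change (-0.11) ran from -0.49 to 0.26. A value for the whole gene adds reads over all exons, so it does not show whether a part of Notch2 was deleted. For that reason the libraries are called knockout-labelled throughout.

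Around the targeted loci, 0 of 198 tested genes within 10 Mb of Notch1 and 0 of 207 within 10 Mb of Notch2 passed an adjusted p of 0.05. At an unadjusted p under 0.05 there were 5 (2.53%) and 4 (1.93%), near the 2.29% found over all tested genes. Gstm5, a glutathione transferase gene near Notch2, was among them. It stood at 5.20 and 3.27 in wild type and at 1.19 and 1.13 in knockout-labelled libraries (log2 fold change -1.25, unadjusted p = 0.00064 in limma).

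The remaining parts of the pathway had similar levels in both genotypes. Of the ligands, Jag2 alone was tested, at 1.57 and 2.88 in wild type and 3.66 and 2.40 in knockout-labelled libraries, and the ranges overlapped. Dll1, Dll3 and Dll4 had at most 2 reads in any library, and Jag1 had 55 and 29 reads in wild type and 31 and 15 in knockout-labelled libraries. The receptor Notch3 had 4 to 7 reads per library and Notch4 13 to 24.

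Among genes that process the receptor, 13 of 14 were tested, none had an unadjusted p under 0.05 in limma, and the median log2 fold change was 0.04, beside -0.005 over all tested genes. Psen2, one of the presenilins, stood at 19.1 and 21.0 in wild type and 23.0 and 29.5 in knockout-labelled libraries, higher in both but with an unadjusted p of 0.0703. Adam10 stood at 39.8 and 27.0 against 28.5 and 29.8, with overlapping ranges. The transcription complex gave the same picture, with 12 of 13 tested, 0 under the threshold and a median of 0.09. Rbpj stood at 78.4 and 47.5 in wild type and 48.4 and 44.3 in knockout-labelled libraries. Only wild type replicate 1 was apart there, and the log2 fold change of -0.39 became -0.04 without it. Of the inhibitors and turnover genes, 9 of 10 were tested, also with 0 under the threshold and a median of -0.01. Nedd4, an E3 ubiquitin ligase, stood at 22.3 and 17.6 against 16.1 and 14.7, and Numb, which antagonises the receptor, at 9.03 and 10.2 against 12.1 and 10.6.

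Most target genes were barely transcribed in culture in either genotype, so 5 of 13 could be tested. Dtx1, a ubiquitin ligase induced by Notch, had 15 and 19 reads in wild type and 7 and 1 in knockout-labelled libraries, all below 0.24 scaled RPKM. In the lymph node its wild type level was 50.4, 37.3 and 37.6, so the culture level in wild type cells was a small part of that. Hes1, a transcriptional repressor, had 5 and 7 reads against 4 and 1, and Hes5, whose window above held the motif on each strand, had 1 read in all 4 libraries together. Hey2 and Heyl had 0 reads throughout. Nrarp, a feedback inhibitor, stood at 1.15 and 1.16 in wild type and at 0.965 and 1.62 in knockout-labelled libraries, with overlapping ranges. Of the more abundant targets, Il2ra, the IL-2 receptor alpha chain, stood at 251 and 236 against 264 and 239 and overlapped. The growth regulator Myc stood at 31.1 and 44.3 against 45.1 and 48.0, and the D-type cyclin Ccnd3 at 147 and 202 against 202 and 206. For both, wild type replicate 1 was the low library, and without it the log2 fold changes of 0.32 and 0.24 became 0.07 and 0.01. The median over the 5 tested targets was 0.07, and the one under an unadjusted p of 0.05 was Gzmb, described with the cytotoxic genes.

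**Figure D1:**
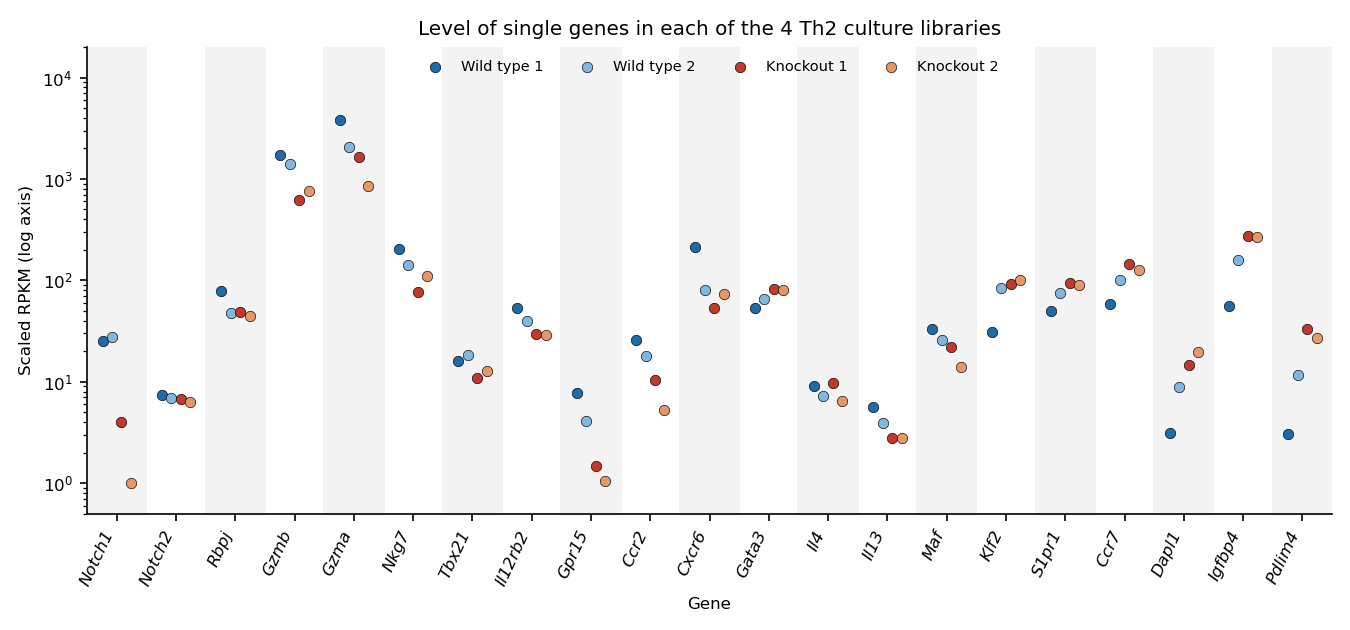
Level of single genes (scaled RPKM, log axis) in each of the 4 libraries, where every point is 1 library and blue points are wild type. Notch1 and Gzmb are apart between the genotypes, Notch2 and Il4 are nearly level, and for Klf2 and Cxcr6 wild type replicate 1 lies away from the other 3.

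No gene passed the test across the whole table. Of 10914 genes, 0 were called higher (0%) and 0 called lower (0%) at an adjusted p under 0.05 in limma, and the smallest adjusted p was the 0.360 of Notch1. Leaving out wild type replicate 1 also gave 0 called genes and leaving out wild type replicate 2 gave 3. Leaving out knockout-labelled replicate 1 or 2 gave 60 and 63, in fits where limma took every gene's spread from the trend over all genes. At an unadjusted p under 0.05 there were 250 genes, or 2.29%, of which 102 were higher (0.935%) and 148 lower (1.36%) in knockout-labelled libraries. These counts are the background for every list below. With 2 libraries a group an exact permutation test cannot go below 0.333 for any gene. The ranges of the groups did not overlap in 2314 genes (21.2%), 1105 of them higher (10.1%) and 1209 lower (11.1%).

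Sizes of the differences were small for most genes. The median SE was 0.179 on the log2 scale. For 10376 genes, or 95.1%, the interval lay within 1 unit of this scale either way, so a difference of 1 unit lay outside it. At low levels the added 1 makes such a difference smaller than the ratio, so a larger ratio is not excluded there. A log2 fold change of at least 1 was seen in 29 genes higher and 29 lower. Without wild type replicate 1, 187 genes had an unadjusted p under 0.05 (1.71%), 82 higher (0.751%) and 105 lower (0.962%), and 111 of the first 250 were among them with the same sign.

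**Figure D2:**
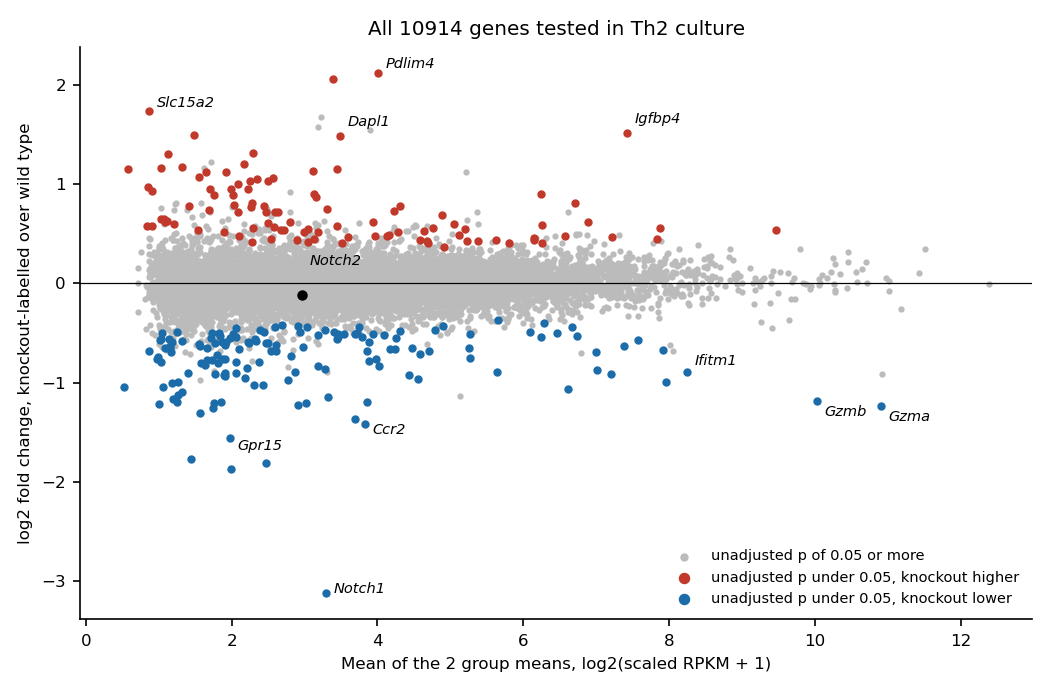
Log2 fold change, knockout-labelled over wild type, of 10914 genes (1 point each) against their mean level in log2(scaled RPKM + 1), with an unadjusted p under 0.05 in red (higher) or blue (lower) and Notch2 in black. Notch1 at -3.12 lies below all other genes, and most points lie close to 0 at every level.

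The gene with the next smallest p after Notch1 was Slc15a2, a proton-coupled peptide transporter (chr16:36750164-36784962). It had 0 and 0 reads in wild type and 158 and 228 reads, or 1.93 and 2.77 scaled RPKM, in knockout-labelled libraries. Detected in both of the latter and in neither of the former, it was at least 64.3-fold higher when wild type is set to 3 reads per library, and its unadjusted p in limma was 6.96e-05 (adjusted 0.380). The lymph node gave nearly the same difference. There it stood at 0.013 to 0.044 in wild type and 1.34 to 3.07 in knockout-labelled libraries, and the log2 fold changes of 1.73 in culture and 1.72 in the node differed by 0.01 (interval -0.65 to 0.67).

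Among the 8 genes with the smallest p-values, those not yet described were lower in knockout-labelled libraries than in wild type. Stk32c, a serine/threonine kinase gene, stood at 5.28 and 5.20 in wild type and at 2.29 and 2.64 in knockout-labelled libraries (log2 fold change -0.85, unadjusted p = 0.00145 in limma), and the replicates of each genotype lay close together. In the lymph node its difference had the opposite sign, with a log2 fold change of 1.96 (adjusted p = 7.28e-05 in limma). Ifitm1, an interferon-induced membrane protein gene, stood at 472 and 358 against 231 and 210.3 (log2 fold change -0.90, unadjusted p = 0.0013), and its neighbour Ifitm2 at 303 and 304 against 194 and 187. Neither gene overlapped between genotypes. Gzmb, Gpr15 and Ccr2 are given with their groups. Granzymes, Ifitm genes, glutathione transferases and chemokine receptors include members of similar sequence, and how reads that match several genes were shared out is not given in the sources used here.

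Cytotoxic and Th1 genes were lower in knockout-labelled libraries. Of 26 listed genes 21 were tested, 19 had a negative fold change, and 10 had an unadjusted p under 0.05, all of them lower, beside 1.36% lower over all genes. In 12 of 21 the knockout-labelled range lay wholly below the wild type range, beside 11.1% over all genes. The median log2 fold change was -0.50, and -0.24 without wild type replicate 1 (-0.61 to -0.45 without each other library). Without that library 6 genes were lower at this threshold (beside 0.962%), all 6 among the 10, and the others of the 10 were Gzma, Prf1, Il18rap and Hopx. The choice of this list was made with results of these data known, so its direction is a description.

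Gzmb, the serine protease that cytotoxic granules deliver into target cells (chr14:56258836-56262334), stood at 1734 and 1417 in wild type and at 616 and 767 in knockout-labelled libraries. Both knockout-labelled values lay far below both wild type values. The log2 fold change was -1.19 (SE 0.20, interval -1.65 to -0.73, unadjusted p = 0.000344 in limma), and -1.04 (unadjusted p = 0.00315) without wild type replicate 1. The adjacent granzyme gene Gzmc stood at 15.4 and 27.0 against 9.02 and 7.71, and its log2 fold change of -1.20 was -1.58 without that library. Gzma, another granzyme, stood at 3806 and 2056 in wild type against 1655 and 848. Its ranges were apart too, but its log2 fold change of -1.24 (unadjusted p = 0.0109) was -0.79 (unadjusted p = 0.0972) without wild type replicate 1.

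Several other cytotoxic and Th1 genes were lower too. Nkg7, a granule membrane protein gene, stood at 202 and 143 against 77.1 and 111, and Ctsw, a cathepsin of cytotoxic cells, at 95.3 and 85.8 against 65.7 and 58.6. The pore-forming perforin gene Prf1 stood at 7.72 and 5.43 against 4.04 and 3.73. None of these 3 genes overlapped between genotypes. Tbx21, which encodes the Th1 transcription factor T-bet, stood at 15.9 and 18.5 against 10.9 and 12.9 (log2 fold change -0.50, unadjusted p = 0.0174 in limma, and -0.61, unadjusted p = 0.0112, without wild type replicate 1). Il12rb2, the signalling chain of the IL-12 receptor, stood at 53.8 and 40.0 against 29.3 and 29.1 (log2 fold change -0.65, unadjusted p = 0.00672). Ifng, the Th1 cytokine whose protein was blocked in the culture, had 37 and 16 reads in wild type and 9 and 9 in knockout-labelled libraries and was too low to be tested. Members of the list that did not separate included Runx3, at 35.3 and 44.2 against 36.9 and 39.2, and Ccl5, at 5.61 and 7.55 against 7.03 and 7.54.

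Markers of other cytotoxic cells were measured beside this result. The 7 natural killer cell markers summed to 21.5 and 14.0 in wild type and 7.89 and 15.1 in knockout-labelled libraries, nearly all of it Eomes (17.5 and 10.9 against 6.71 and 13.2) and Klrk1 (3.66 and 2.58 against 1.06 and 1.79, unadjusted p = 0.012 in limma). The defining markers Ncr1 and Klra4 had 0 reads in all 4 libraries, and Klrb1c had 9 and 8 reads against 1 and 4. Of the CD8 T cell markers, Cd8a stood at 1.07 and 0.79 against 0.33 and 0.45, and Cd8b1 at 2.54 and 3.35 against 3.18 and 1.92. The part of CD8 T cells in the result was not tested. In such bulk libraries fewer cells of a type and less RNA per cell cannot be told apart.

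None of the tested Th2 genes was called, and the direction of the difference varied between genes. Il4, the cytokine that both signals for and marks the Th2 fate, stood at 9.18 and 7.18 in wild type and at 9.83 and 6.52 in knockout-labelled libraries. The ranges overlapped, with a log2 fold change of -0.02 (interval -0.53 to 0.49). Il13, which drives mucus and airway responses, was lower, at 5.60 and 3.93 against 2.80 and 2.78, without overlap (log2 fold change -0.59, interval -1.06 to -0.12, unadjusted p = 0.0202 in limma). Without wild type replicate 1 it was -0.38 (unadjusted p = 0.0799). Il5, which supports eosinophils, was barely transcribed, with 3 and 4 reads against 1 and 5, and Il9 and Il3 had 0 reads. Of 14 cytokine genes 7 were tested, 1 (Il13) had an unadjusted p under 0.05, and the median was -0.22. It was 0.06 without wild type replicate 1, -0.17 without replicate 2, and -0.54 and -0.04 without knockout-labelled replicates 1 and 2. Il10, an inhibitory cytokine, stood at 37.5 and 19.0 against 21.9 and 18.1, with wild type replicate 1 alone apart.

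A pair of Th2 transcription factors separated in opposite directions. Gata3 stood at 52.9 and 66.0 in wild type and at 82.3 and 80.6 in knockout-labelled libraries, higher in both (log2 fold change 0.46, SE 0.16, interval 0.08 to 0.83, unadjusted p = 0.0237 in limma). Maf, which encodes a factor that activates Il4, stood at 33.1 and 26.0 against 21.9 and 14.0, lower in both (log2 fold change -0.71, SE 0.23, unadjusted p = 0.0148). Neither was under 0.05 without wild type replicate 1, with log2 fold changes of 0.30 (unadjusted p = 0.086) and -0.54 (unadjusted p = 0.0902). Of 16 listed factors 15 were tested, and these were the only 2 under that threshold. The median was 0.03, and -0.07 to 0.14 on leaving out each library. Junb, an AP-1 component, stood at 49.7 and 106 against 133 and 109, again with wild type replicate 1 apart.

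Among 10 tested Th2 surface receptors of 14, Ltb4r1, the leukotriene B4 receptor, was the one under the threshold, at 10.97 and 12.0 against 9.61 and 6.48 (log2 fold change -0.48, unadjusted p = 0.0439 in limma, and -0.54, unadjusted p = 0.0634, without wild type replicate 1). Il4ra, the IL-4 receptor alpha chain, stood at 257 and 312 against 393 and 283 and overlapped. Of the Th17 list, 0 of 10 genes were high enough to be tested.

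Several genes of lymph node homing and egress were higher in knockout-labelled libraries, by less without wild type replicate 1. Of 13 tested genes (15 listed) 10 were higher, 4 with an unadjusted p under 0.05 beside 0.935% over all genes, and 1 was lower. Klf2, the transcription factor that drives S1pr1, stood at 31.1 and 84.3 in wild type and 91.4 and 101.5 in knockout-labelled libraries. Wild type replicate 2 lay much closer to the knockout-labelled libraries than to its own replicate, and the log2 fold change of 0.90 (unadjusted p = 0.0489 in limma) became 0.19 (unadjusted p = 0.267) without replicate 1. S1pr1, the receptor that guides cells out along sphingosine-1-phosphate, stood at 49.4 and 74.4 against 93.2 and 90.8 (log2 fold change 0.59, and 0.30 without the library). Ccr7, the receptor for entry into lymph nodes, stood at 58.2 and 101 against 145 and 126 (0.81, unadjusted p = 0.0118, and 0.42, unadjusted p = 0.0462, without it). Rgs1, which dampens signalling by such receptors, was lower, at 259.7 and 147 against 126 and 84.3 (log2 fold change -0.91, and -0.50 without the library). Cd69, which holds S1pr1 inside the cell, stood at 8.51 and 4.31 against 4.44 and 4.92 and overlapped. The list's median was 0.20, and 0.09 without wild type replicate 1, 0.38 without wild type replicate 2, 0.24 without knockout-labelled replicate 1 and 0.26 without its replicate 2.

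Naive and memory T cell genes had the highest median of the lists with at least 5 tested genes. All 23 were tested and 20 were higher in knockout-labelled libraries, 7 with an unadjusted p under 0.05 (beside 0.935%), and in 10 the ranges were apart (beside 10.1%). The median log2 fold change was 0.41. It was 0.16 without wild type replicate 1, 0.15 without knockout-labelled replicate 1, 0.40 without wild type replicate 2 and 0.50 without knockout-labelled replicate 2. Without wild type replicate 1, 3 genes were under the threshold (beside 0.751%). Igfbp4, which binds insulin-like growth factors, stood at 56.3 and 158 in wild type and 274 and 271 in knockout-labelled libraries. Its log2 fold change was 1.52 (unadjusted p = 0.00532 in limma), and 0.78 without that library. Dapl1 stood at 3.15 and 8.82 against 14.5 and 19.7 (1.49, unadjusted p = 0.00365 in limma, and 0.87 without that library). In both genes the knockout-labelled libraries lay above both wild type libraries, whose own values were far apart. Of the other members, Id3, an inhibitor of E proteins, and Klf3, a repressor, stood at 16.8 and 28.2 against 31.2 and 41.1 and at 2.49 and 5.43 against 6.16 and 7.47. Without that library their log2 fold changes of 0.69 and 0.72 became 0.33 and 0.28. Tcf7, the factor of naive and stem-like T cells, stood at 158 and 223 against 283 and 218 and overlapped. Outside the lists, Pdlim4, which was chosen after its values were seen, had the highest log2 fold change of the genes with a mean of at least 5 in either genotype, at 3.04 and 11.6 against 32.9 and 27.3 (log2 fold change 2.12, and 1.30 without wild type replicate 1).

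Of 14 tested chemokine receptor genes (19 listed) 10 had a negative and 4 a positive fold change, and none was called. At an unadjusted p under 0.05 in limma, 5 were lower (beside 1.36% over all genes) and 1, Ccr7, was higher (beside 0.935%). The median was -0.30, or -0.08 without wild type replicate 1 and -0.48 without wild type replicate 2 (-0.31 to -0.29 without each knockout-labelled library). Gpr15, a homing receptor for gut and skin, stood at 7.69 and 4.06 in wild type and at 1.47 and 1.05 in knockout-labelled libraries (log2 fold change -1.56, unadjusted p = 0.000502 in limma, and -1.17, unadjusted p = 0.00245, without it). Cxcr6, Ccr1 and Ccr2 lie together on chromosome 9 (chr9:123806477-124109140), and each was lower. Ccr2 stood at 26.0 and 18.0 against 10.4 and 5.32. Ccr1 stood at 3.87 and 3.04 against 2.32 and 1.16, and Cxcr6 at 213 and 81.0 against 54.0 and 72.5. None of these 3 overlapped between genotypes, but for Cxcr6 wild type replicate 1 was well above the rest. Without it the log2 fold changes were -1.16 for Ccr2 (from -1.42), -0.37 for Cxcr6 (from -1.06) and -0.59 for Ccr1. The Th2-associated receptors Ccr4 (35.0 and 41.3 against 43.3 and 37.1) and Ccr8 (55.0 and 39.3 against 38.5 and 45.0) overlapped.

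**Figure D3:**
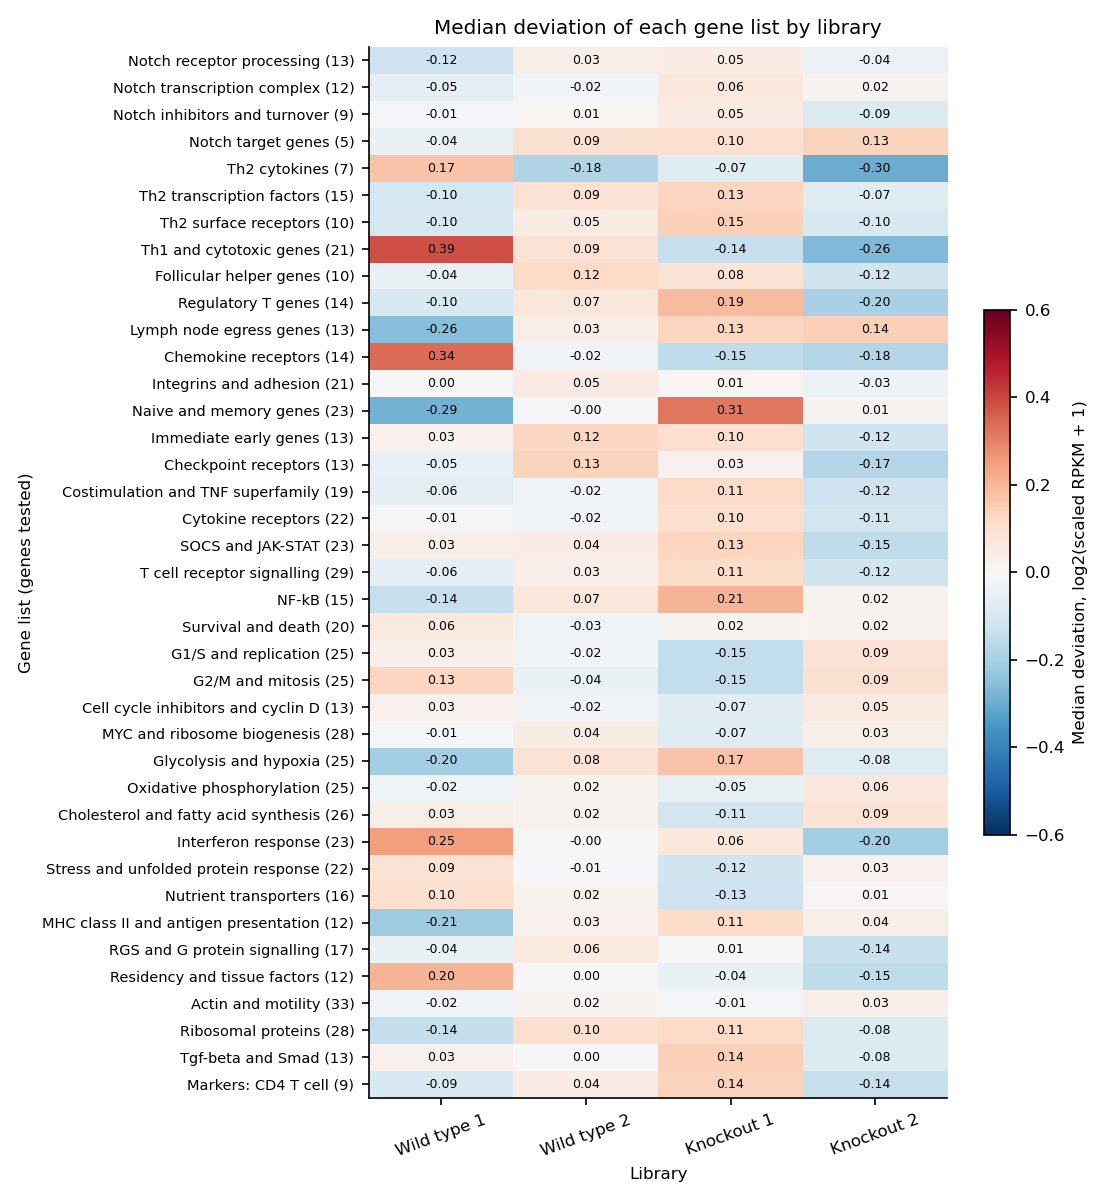
Median over each list's tested genes (number in brackets) of the deviation of each library from the mean of the 4, in log2(scaled RPKM + 1), by colour and number. Wild type 1 has the deviations of largest size for the cytotoxic list (0.39) and the chemokine receptors (0.34), and knockout-labelled 1 the highest one for the naive and memory genes (0.31).

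The medians of the tissue residency and checkpoint lists were below 0 and depended on single libraries. Of 12 tested residency genes 11 were lower, 2 at an unadjusted p under 0.05 in limma (beside 1.36% over all genes). The median was -0.28, or -0.09 without knockout-labelled replicate 2 (-0.32 to -0.21 without each other library). At that threshold, 0 of 12 were lower without wild type replicate 1. Besides Cxcr6 this was Id2, an inhibitor of E proteins, at 259.6 and 157 against 127 and 135 (log2 fold change -0.63, and -0.27 without that library). Of 13 checkpoint receptors 10 were lower, 2 at that threshold (beside 1.36%), with a median of -0.21. This was -0.03 without wild type replicate 2, -0.07 without knockout-labelled replicate 2, -0.20 without wild type replicate 1 and -0.34 without knockout-labelled replicate 1. Pdcd1, which encodes PD-1, stood at 15.6 and 13.4 against 9.24 and 10.5 (log2 fold change -0.51, unadjusted p = 0.0152 in limma), and Cd160 at 6.79 and 5.20 against 3.38 and 3.82 (-0.60, unadjusted p = 0.0143). Without wild type replicate 1 they were -0.41 (unadjusted p = 0.0424 in limma) and -0.43 (unadjusted p = 0.051). Ctla4 and Tigit overlapped between genotypes, at 63.6 and 73.7 against 84.7 and 51.2 and at 87.8 and 108 against 95.5 and 91.1.

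Interferon response genes were lower in 19 of 23, with a median of -0.20. It was -0.07 without wild type replicate 1, -0.04 without knockout-labelled replicate 2, and -0.34 without wild type replicate 2 or knockout-labelled replicate 1. Only 1 was lower at an unadjusted p under 0.05, Isg15, a ubiquitin-like modifier, at 7.65 and 9.44 against 5.95 and 6.11 (unadjusted p = 0.0372 in limma, and 0.0105 without that library). Usp18, the protease that removes it, was higher at 3.85 and 3.85 against 8.06 and 4.70 (unadjusted p = 0.0441 in limma, and 0.103 without it). Antigen presentation genes were higher in 10 of 12, with a median of 0.15, which was 0.06 without wild type replicate 1, 0.08 without knockout-labelled replicate 1, 0.17 without its replicate 2 and 0.28 without wild type replicate 2. Cd74, the invariant chain, stood at 2.87 and 3.77 against 6.10 and 6.02 (log2 fold change 0.72, unadjusted p = 0.00494 in limma, and 0.56, unadjusted p = 0.0135, without wild type replicate 1), without overlap. Cd79b, the B cell marker that was high enough to test, stood at 7.46 and 9.20 against 7.01 and 12.4, and it overlapped.

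Of 13 tested immediate early genes 7 were higher and 6 lower, 1 of them, Egr3, at an unadjusted p under 0.05. Egr3, an early growth response factor induced by the T cell receptor, stood at 1.66 and 1.47 against 0.616 and 0.425, and Pim2, a survival kinase and the one of 23 tested SOCS and JAK-STAT genes under that threshold, at 188 and 137 against 109 and 89.7. Their log2 fold changes were -0.76 and -0.69, and -0.70 and -0.47 without wild type replicate 1. Most other programmes were at similar levels. None of the tested members had an unadjusted p under 0.05 in limma for integrins (21 tested), T cell receptor signalling (29), NF-kB (15), DNA replication (25), mitosis (25), MYC and ribosome biogenesis (28), glycolysis (25), oxidative phosphorylation (25), cholesterol and fatty acid synthesis (26), stress and unfolded protein response (22) or nutrient transport (16). Their medians lay between -0.10 and 0.11. Glycolysis genes were higher in 20 of 25 and ribosomal protein genes in 21 of 28. Without wild type replicate 1 these counts were 10 and 8.

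**Figure D4:**
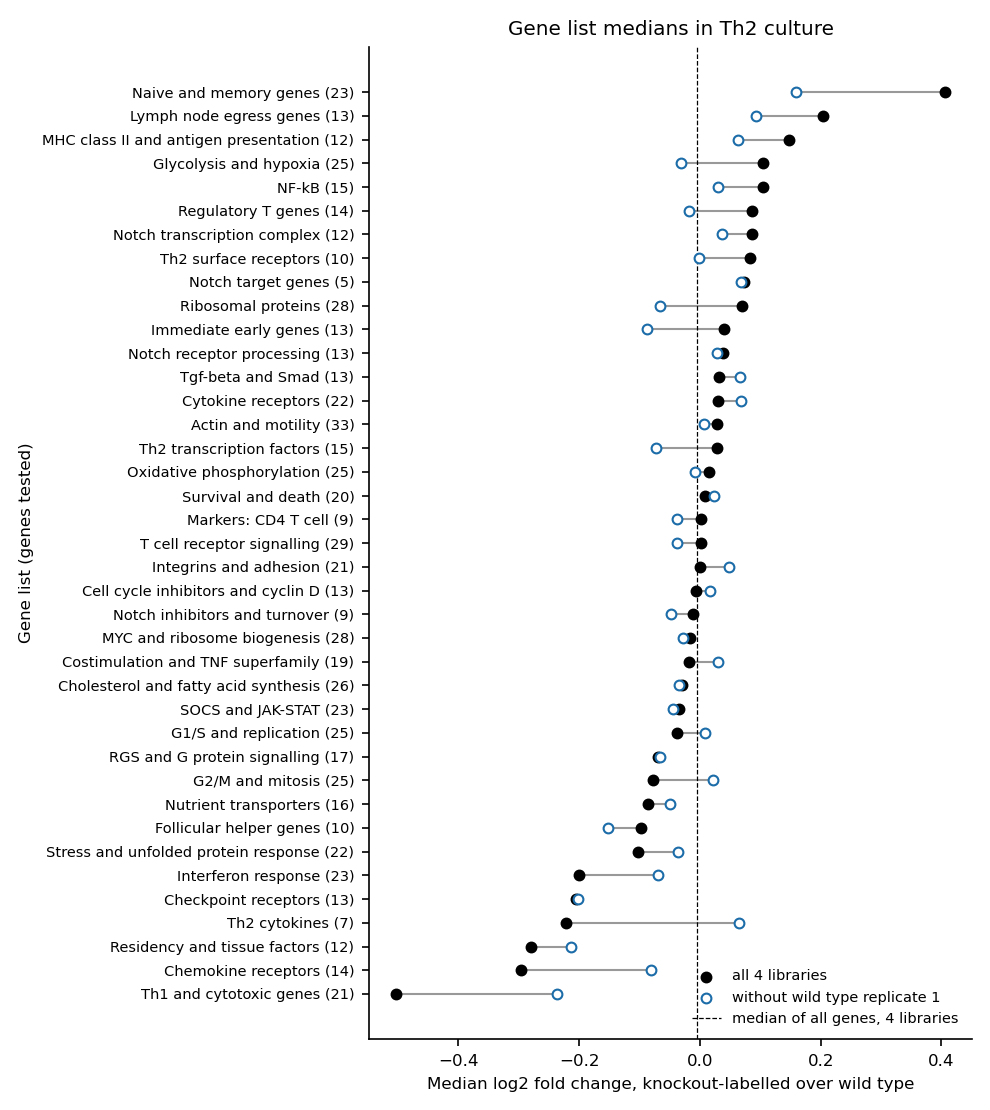
Median log2 fold change, knockout-labelled over wild type, of each list with at least 5 tested genes (number in brackets), with all 4 libraries (black) and without wild type replicate 1 (open circles). The cytotoxic list at -0.50 and the naive and memory list at 0.41 lie farthest of these from the median of all genes (dashed), and both are nearer to it without that library.

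To ask whether the genotype difference in culture was another one than in the lymph node, both were fitted in 1 limma model over 11 OTII libraries. In 445 of 11281 genes, or 3.94%, the difference between the 2 log2 fold changes had an adjusted p under 0.05, 174 positive (1.54%) and 271 negative (2.40%). The absolute fold change was larger in the node for 428 of these and larger in culture for 17. The node contrast in that fit rested on 7 libraries and called 2011 genes (17.8%), 1127 higher (9.99%) and 884 lower (7.84%). Some node libraries of a genotype share the first number in their column headers. The labels do not say whether these came from separate mice, yet the fit treats each as a replicate. With such libraries averaged, 258 differences were called in place of 445. Of the 445 genes, 73 were below the filter used in culture. The 445 became 202 without culture wild type replicate 1, 217 without culture knockout-labelled replicate 2, and 260 and 290 without node wild type replicates 3 and 2. The cells differed in origin, time and treatment as well as in being cultured, and these cannot be told apart.

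Notch2 itself differed. In the node it rose in knockout-labelled libraries, from 7.16 to 7.78 in wild type to 13.4 to 17.8, while the culture values lay at 6.27 to 7.32 in all 4 libraries. The log2 fold changes differed by -1.05 (SE 0.17, adjusted p = 0.00581 in limma). Notch1 fell in the node too, from 44.0 to 46.7 to 7.60 to 12.3, and the difference from culture, -1.06, had an adjusted p of 0.211 in limma, or 0.0120 without knockout-labelled culture replicate 1.

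The target Dtx1 fell in the node, to 0.696 to 1.14 from 37.3 to 50.4, and was near 0 in culture in all libraries, a difference of 4.31 (adjusted p = 7.51e-06 in limma), or 4.36 with 0.1 added in place of 1. Grhl1, a grainyhead-like transcription factor, and Prag1 were near 0 in culture in both genotypes but had 11.1 to 12.4 and 6.51 to 7.59 in the wild type node, and differed by 2.94 and 2.65. Gpr183, the oxysterol receptor that positions lymphocytes in follicles, was expressed in both settings. It stood at 7.24 and 5.14 in wild type and 7.11 and 6.93 in knockout-labelled cultures, whereas in the node it fell from 13.1 to 20.2 in wild type to 0.246 to 0.651 in knockout-labelled libraries (difference 3.73, adjusted p = 4.7e-05).

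Of the 13 tested egress genes, 6 had a called positive difference (beside 1.54% of all genes), and in the node 7 were called lower and 1 higher. Klf2 fell in the node from 74.7 to 83.7 in wild type to 19.4 to 28.7 in knockout-labelled libraries, and it was higher in knockout-labelled cultures, so that the fold changes differed by 2.66 (adjusted p = 0.0063 in limma). S1pr1 (difference 1.74, adjusted p = 0.00451) and Ccr7 (difference 2.19, adjusted p = 0.000981) had the same signs. In culture Klf2 (0.19) and S1pr1 (0.30) were closer to 0 without wild type replicate 1, as given above. Gata3 fell in the node from 49.3 to 59.9 to 33.5 to 42.7, against its higher level in knockout-labelled cultures, a difference of 0.93 (adjusted p = 0.0177). Without culture wild type replicate 1 that adjusted p was 0.0900 in limma, without knockout-labelled culture replicate 1 it was 0.0623, and without replicate 2 it was 0.0667. For Il4, which fell in the node from 39.5 to 48.3 in wild type to 9.13 to 27.4, the difference of 1.23 (interval 0.18 to 2.28) had an adjusted p of 0.198, and for Il13 the difference of -1.17 had one of 0.337.

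Il9r, the IL-9 receptor, rose in the node from 3.81 to 5.16 in wild type to 39.6 to 54.5 in knockout-labelled libraries and stood at 0.756 to 1.14 in all 4 cultures (difference -3.16). Gzmb was lower in knockout-labelled libraries in both settings, by -1.19 in culture and -4.54 in the node on the log2 scale, and the difference had an adjusted p of 0.0755 in limma (0.00111 to 0.229 on leaving out single libraries). Of 24 cytotoxic and Th1 genes in that fit, 9 were called higher in knockout-labelled nodes (beside 9.99% of all genes) and 2 called lower (beside 7.84%). The difference between culture and node was called in 7 of them, all negative (beside 2.40%).

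Over all genes called in the node, the share with the same sign in culture moved to either side of 50% with the library left out. Of 1017 genes higher in knockout-labelled nodes, 500 were higher in knockout-labelled cultures (49.2%, beside 44.1% of all genes with a positive node value), and of 832 genes lower in the node 378 were lower in culture (45.4%, beside 46.6%). Without wild type replicate 1 these shares were 48.2% and 60.0%, without wild type replicate 2 49.5% and 43.3%, without knockout-labelled replicate 1 40.1% and 38.7%, and without its replicate 2 56.8% and 56.6%. Across those 1849 genes, Notch1 left out, Pearson's r between the log2 fold changes was -0.004, and 0.11 without that library. At an unadjusted p under 0.05 in culture in limma, 11 of 37 genes higher in the node had the same sign (beside 43 of 109 of all genes with a positive node value). For genes lower in the node it was 24 of 41 (beside 81 of 140 with a negative node value). Genes share libraries and are not independent replicates, so these counts and r are descriptions.

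**Figure D5:**
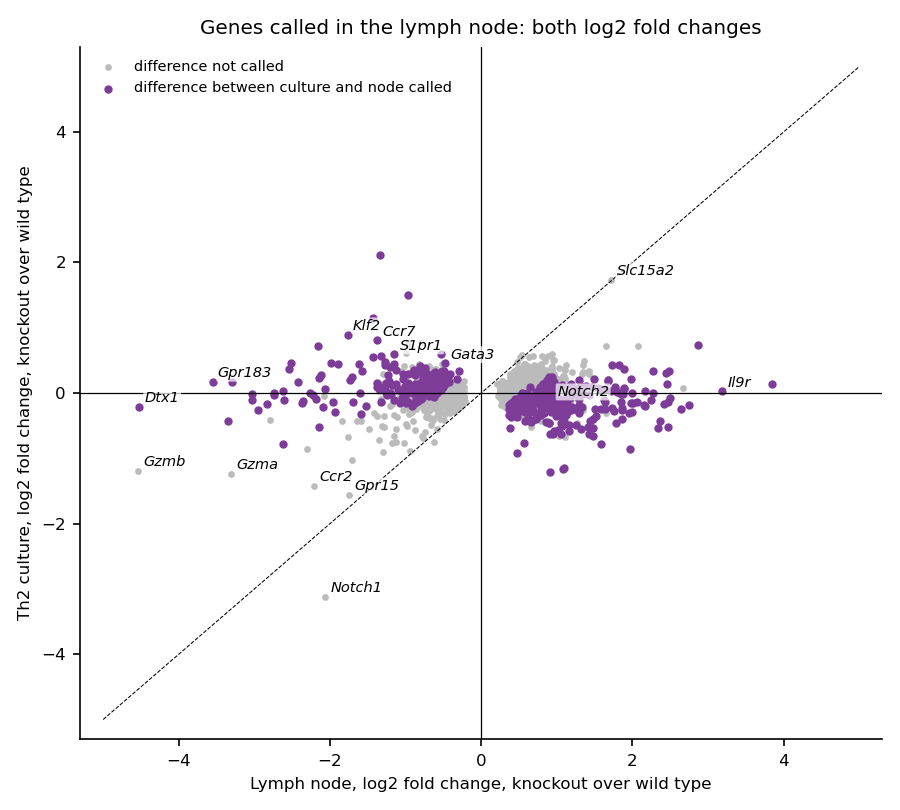
Log2 fold change in culture (vertical axis) against that in the lymph node (horizontal axis), knockout-labelled over wild type, 1 point per gene called in the node, in purple where the difference between both was called, with equality dashed. Notch1 and Gzmb are low on both axes, while Klf2, Ccr7 and S1pr1 are low in the node and above 0 in culture.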

How the data were processed

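Whole-transcriptome libraries were made by the Smart-seq2 method, per the labels' protocols. HISAT2 2.0.4, HOMER, DESeq2 and build mm10 are named in the submitters' processing notes. The authors deposited RPKM values per gene, 1 table per library and 1 transcript length per gene. The size of 1 read was found from the steps between low values, and values times length then came out as whole reads for 100% of the values below 100 reads in each culture library (tolerance 0.1 reads). This gives library totals of 20.06 to 21.37 M reads in culture and 18.93 to 27.53 M reads in the node.

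From these values, library factors were computed as the median ratio over 9787 genes with at least 1 RPKM in all 11 OTII libraries. log2(scaled RPKM + 1) was fitted with limma 3.58.1 (R 4.3.3; lmFit and eBayes with a variance trend), 2 knockout-labelled against 2 wild type libraries, for genes with at least 1 RPKM in at least 2 of the 4. Benjamini-Hochberg adjusted p-values under 0.05 were called. The difference between culture and node was fitted over 4 groups and 11 libraries. The fit was also run on simulated normal values with the same spread for every gene and no library that stood apart. That run cannot show how the fit handles the spread of these libraries.

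By rule 12 genes were chosen for each comparison (Notch1 and Notch2, their targets Dtx1 and Hes1, Gata3 with the cytokine genes Il4, Il5 and Il13, and of homing Cd69, Ccr7, Klf2 and S1pr1). Added to these were the 8 genes of smallest p in culture and the 2 members of smallest p of each gene list. The 6 differences between culture and node of smallest p were also chosen. Predicted and small RNA genes were left out. Further members are named from the fixed lists and were chosen after their values were seen. Some list members, including some chosen by rule, are counted but not reported by name here. The genes, the 53 lists (778 genes, 772 of them in the tables) and the rules were chosen with earlier results of these data known. Alternatives were other scalings, pseudocounts, filters, variance models, a replicate block, voom on the reads recovered and leaving out each library.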

Additional observations from a re-analysis of the deposited data

Results flagged for a closer look

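The difference between culture and lymph node was itself tested in limma over 11 libraries, and 445 genes had an adjusted p under 0.05. Among the genes chosen by rule for this comparison, 11 did. Dtx1, Grhl1, Prag1, Gpr183, Il9r and Dnase1l3 were chosen as the 6 of smallest p in this same test, so their passing was fixed by the choice. Each value is the log2 fold change in culture minus that in the node, knockout-labelled over wild type.

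The differences were positive for Dtx1 (4.31), Gpr183 (3.73), Grhl1 (2.94), Klf2 (2.66), Prag1 (2.65), Ccr7 (2.19), S1pr1 (1.74) and Gata3 (0.93). For Gata3 this depended on single culture libraries, as given above. On this scale a fall seen in the node was smaller, absent or reversed in culture for these genes. The same held for Dnase1l3, a secreted DNase gene, with a difference of 2.69. In culture it stood at 1.07 and 0.76 in wild type and at 0.765 and 0.446 in knockout-labelled libraries, and in the node at 7.65 to 9.71 and at 0.136 to 0.317.

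They were negative, against a rise in the node, for Il9r (-3.16) and Notch2 (-1.05). Dtx1, Grhl1 and Prag1 were near 0 in all 4 culture libraries, so any fall there is small on this scale. Mean Dtx1 in culture was 0.218 in wild type and 0.052 in knockout-labelled libraries, a log2 fold change of only -0.21 with the added 1. The size of its difference from the node therefore does not show that culture lacked a fall.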

How the results depend on the processing

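The count of 0 called genes in culture was also 0 with RPKM as deposited, factors from the 4 culture libraries, a pseudocount of 0.1, either other filter, no variance trend and without wild type replicate 1. It was 1 with a pseudocount of 5, 1 with the spread of 11 libraries and 2 with voom on the recovered reads. Leaving out single libraries gave 0 to 63 called genes, with 3 without wild type replicate 2, 60 without knockout-labelled replicate 1 and 63 without replicate 2. The replicate block gave 75 (36 higher and 39 lower), among them 14 named genes. Same-numbered libraries did not deviate together (r = -0.19), but with 2 libraries a group this cannot show whether the numbers mark pairs. The labels do not say that they do, so the block stays an alternative. Crossed replicate numbers gave 1. In the block fit and in both fits without a knockout-labelled library, limma gave every gene the spread of the trend, which leaves no spread of the gene's own in the test.

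The log2 fold change of Notch1 kept its sign throughout. Its adjusted p in limma was under 0.05 with a pseudocount of 5 (-2.10), the spread of 11 libraries (-3.12), the replicate block (-3.12), the crossed block (-3.12) and voom (-3.72). Leaving out single libraries gave -3.78 to -2.46. Notch2 lay between -0.16 and -0.07 and was never called. Of 95 genes chosen by rule and with a culture test, 82 kept their sign under every alternative and 13 did not. None of the 13 was called.

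The 445 differences between culture and node became 258 with node libraries that share a header number averaged (added after the data were seen), and 202 to 552 on leaving out single libraries. The lowest counts came without culture wild type replicate 1 (202), culture knockout-labelled replicate 2 (217), node wild type replicate 3 (260) and node wild type replicate 2 (290). RPKM as deposited gave 428. List medians and list counts without wild type replicate 1 were added after that library was seen to stand apart. Of 39 list medians, 18 moved by more than 1 SD between replicates without knockout-labelled replicate 2, 12 without its replicate 1, and 7 without each wild type replicate. Genes under the filter on low values were not tested at this depth.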

Other observations

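Single members of other lists had an unadjusted p under 0.05 in limma, beside 2.29% of all genes, and none was called. Tnfrsf25, the receptor for TL1A, stood at 3.35 and 7.76 in wild type and 12.2 and 9.09 in knockout-labelled libraries (log2 fold change 0.90, and 0.40 without wild type replicate 1). The p53 target Bbc3, which encodes the death inducer PUMA, stood at 5.94 and 10.01 against 11.2 and 13.0, and Bcl2a1b, of the Bcl-2 family, at 4.71 and 3.38 against 2.82 and 2.10. Both were without overlap between genotypes, in opposite directions. Their log2 fold changes of 0.58 and -0.54 became 0.25 and -0.35 without wild type replicate 1. Ikzf2, which encodes Helios, stood at 5.41 and 2.57 against 1.68 and 1.96, where wild type replicate 1 alone was far above. Myo1f, a class I myosin gene, stood at 55.5 and 56.4 against 40.9 and 45.6, with close replicates.

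A marker of another cell type and a cytokine gene stood highest in wild type replicate 1. Cpa3, a protease of mast cells and basophils, stood at 14.8 there and at 5.81, 5.07 and 6.95 in the other 3 libraries, and Il6 at 4.01 beside 1.52, 1.76 and 1.02.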
